A study of Mus musculus with 2 samples.

Results

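The 31 genes described here encode the pyruvate dehydrogenase complex with its kinases and phosphatases, several enzymes of the citric acid cycle, and the malic enzymes and pyruvate carboxylase that feed it. They were chosen by name, and all 31 were found among the 43346 genes measured in mouse testis. Their identifiers were matched without version to GENCODE names on the mm10 build. The RNA came from the testis of 1 adult C57BL/6J male aged 10 weeks, an inbred mouse with no treatment or engineered allele in the labels, and its polyA mRNA was sequenced. The 2 libraries are technical replicates of that animal, and replicate 2 was made later than replicate 1. No second animal or condition is analysed here, so each value describes this testis, and the spread between the libraries is technical.

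Pyruvate dehydrogenase is the mitochondrial complex that turns pyruvate into acetyl-CoA, the fuel of the citric acid cycle. Its E1 enzyme is switched off by phosphorylation, which the kinases add and the phosphatases remove. The cycle oxidises the acetyl group and hands the electrons to the respiratory chain. In spermatogenic cells several metabolic enzymes have their own testis forms, often encoded by intronless autosomal genes whose somatic relatives lie on the X chromosome, which is silenced during male meiosis.

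Expected counts (estimated reads per gene) summed to 20675551 in replicate 2 and 31995377 in replicate 1. A count of 0 allows up to 3 counts, or 0.145 CPM (counts scaled to the library total) in replicate 2 and 0.0938 CPM in replicate 1. The libraries differed by far more than sampling noise, with a chi-square of 577 per degree of freedom over 18581 genes. Across 18396 of these genes the log2 ratio of replicate 2 over replicate 1 followed the GC content of the transcript (Spearman rho of 0.885, across genes, which are not independent replicates). Markers of spermatocytes and spermatids were present in both libraries. The 4 spermatid markers summed to 24201 TPM (a level scaled for transcript length and library depth) in replicate 2 and 7258 TPM in replicate 1. The 3 spermatocyte markers summed to 757 TPM in replicate 2 and 1701 TPM in replicate 1. The 3 Leydig cell markers summed to 1994 TPM in replicate 2 and 406 TPM in replicate 1, and the 3 Sertoli cell markers to 1209 TPM in replicate 2 and 845 TPM in replicate 1. Of the Leydig markers 1 of 3 was higher in replicate 2 by the test described below, Insl3, at 1630.3 TPM in replicate 2 and 83.2 TPM in replicate 1. Cyp17a1 had 242 TPM in replicate 2 and 225 TPM in replicate 1, with a log2 ratio of counts of -0.21, and was not called. Hsd3b6, also not called, had 121 TPM in replicate 2 and 97.8 TPM in replicate 1. By that test 2 of 4 spermatid and 2 of 3 Sertoli cell markers were higher in replicate 2, and 2 of 3 spermatocyte markers were lower. Of all tested genes 32.1% were higher and 23.7% lower. The spermatid marker Acrv1, the Sertoli marker Sox9 and the spermatocyte marker Stag3 went against their lists without being called. Their log2 ratios were -0.43, -0.53 and 0.27. The 2 macrophage markers summed to 46.8 TPM in replicate 2 and 16.4 TPM in replicate 1. The 2 liver genes Alb and Apoa2 summed to 6.49 TPM in replicate 2 and 2.53 TPM in replicate 1. None of the 17 markers was at 0 in either library. The part of these differences in the results below was not tested. Both libraries come from 1 testis, so these marker differences are technical and do not describe a change in its cells. The spermatocyte marker transcripts have 35.9% to 49.6% GC and the Leydig ones 49.2% to 63.6%. The part of GC content in the marker differences was not tested. The tissue was sequenced whole, so a marker level does not separate the number of cells of a type from their RNA per cell.

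The E1 alpha subunit has 2 forms, and their sequences are shown because their levels can be compared only where reads tell them apart. Pdha2 (ENSMUSG00000047674.2) is a single exon on the minus strand at chr3:141210004-141212355. Pdha1 (ENSMUSG00000031299.10), the somatic form, has 11 exons on the minus strand at chrX:160122209-160138413. Their coding sequences are 1173 and 1170 bases long, and 885 of 1170 aligned bases were identical (75.6%). The 120-base stretch with the fewest differences is shown from the GENCODE M21 transcripts, because it is where reads of these genes are hardest to tell apart. It covers coding bases 223 to 342 of Pdha2 and 220 to 339 of Pdha1, and capitals mark the 14 bases at which they differ.
Pdha2: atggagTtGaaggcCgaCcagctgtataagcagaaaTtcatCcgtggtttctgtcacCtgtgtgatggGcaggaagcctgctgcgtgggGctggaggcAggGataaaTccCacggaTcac
Pdha1: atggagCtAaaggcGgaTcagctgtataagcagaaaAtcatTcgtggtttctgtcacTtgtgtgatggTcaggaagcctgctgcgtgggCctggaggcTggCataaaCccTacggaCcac
The longest run of identical bases shared by the transcripts was 20 bases, and the deposited posterior SD of the count was 0 for both genes in both libraries.

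The stretches before the transcription starts also differ, and the 250 bases upstream of each RefSeq start are shown (build GRCm38.p6, minus strand). Capitals mark matches to TATAAA.
Pdha2, chr3:141212356-141212605: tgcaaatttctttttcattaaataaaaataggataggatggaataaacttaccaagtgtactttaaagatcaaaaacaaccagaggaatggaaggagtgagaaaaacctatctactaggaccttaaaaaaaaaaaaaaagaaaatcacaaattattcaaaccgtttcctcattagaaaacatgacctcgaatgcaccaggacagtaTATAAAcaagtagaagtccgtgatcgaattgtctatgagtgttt
Pdha1, chrX:160138431-160138680: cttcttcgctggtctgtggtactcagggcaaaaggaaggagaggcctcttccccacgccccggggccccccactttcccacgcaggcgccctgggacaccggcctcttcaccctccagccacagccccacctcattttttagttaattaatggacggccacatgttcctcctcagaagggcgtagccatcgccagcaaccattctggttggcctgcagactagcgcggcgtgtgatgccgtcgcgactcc
With the next 50 bases included, the Pdha2 promoter held 4 CpG pairs and 29.7% GC, and the Pdha1 promoter held 21 CpG pairs and 62.0% GC. TATAAA began 44 bases before the Pdha2 start. Of the 28 genes with a RefSeq promoter entry (Pdp1, Idh3a and Me2 had none), Pdha2 had the lowest GC content and the fewest CpG pairs. The other 27 had more than 10 CpG pairs each, up to 35, and the median of the 28 was 20, against 7 over 32851 promoters of all genes. For Dlat, Fh1, Suclg2 and Me3 the nearest RefSeq start lay 13591 to 196464 bases from that of the most abundant transcript. Their windows do not describe the start of that transcript. TATAAA, searched on both strands, occurred in the windows of Pdha2 and Mdh1b, so in 2 of 28, and in 13.6% of all promoters. The CRE letters TGACGTCA occurred in 1 of 28, Mdh2, and in 1.79% of all promoters. The shorter TGACG, which TGACGTCA contains, occurred in 14 of 28 and in 20.8% of all. GGGCGG occurred in 17 of 28 and in 35.7% of all, and CCAAT in 15 of 28 and in 37.4% of all. These matches describe letters, not sites in use.

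Most of the genes were well expressed. With 1 TPM as the limit in each library, 28 of 31 were detected in both (90.3%), against 11725 of 21474 protein-coding genes (54.6%). Pdp2, Idh2 and Pcx were under 1 TPM in replicate 1. The median gene of the 31 stood at percentile 83.0 of protein-coding genes in replicate 2 and 83.3 in replicate 1. Together the 31 held 2216 TPM in replicate 2 and 2689.9 TPM in replicate 1, so 0.222% of the library's TPM in replicate 2 and 0.269% of it in replicate 1. By expected count they held 57878 in replicate 2 and 110064 in replicate 1. Sucla2, a beta subunit of succinate-CoA ligase, alone made up 19.4% of their summed TPM in replicate 2 and 33.3% in replicate 1. In replicate 2 the order ran Sucla2, Me1, Pdhb, Suclg1 and Mdh1b at the top, and in replicate 1 Sucla2, Me1, Pdhb, Mdh1b and Dld. The authors' deposited TPM intervals overlapped for 19 of 30 neighbours in the order of replicate 2 and for 16 of 30 in that of replicate 1. Some of these intervals do not hold the gene's own TPM. For Sucla2 in replicate 2, at 429 TPM, the interval ran from 394 to 413. By this rough guide much of the order below Me1 is not resolved. Across the 31 genes, TPM ranks in the libraries had a Spearman rho of 0.79.

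**Figure D1:**
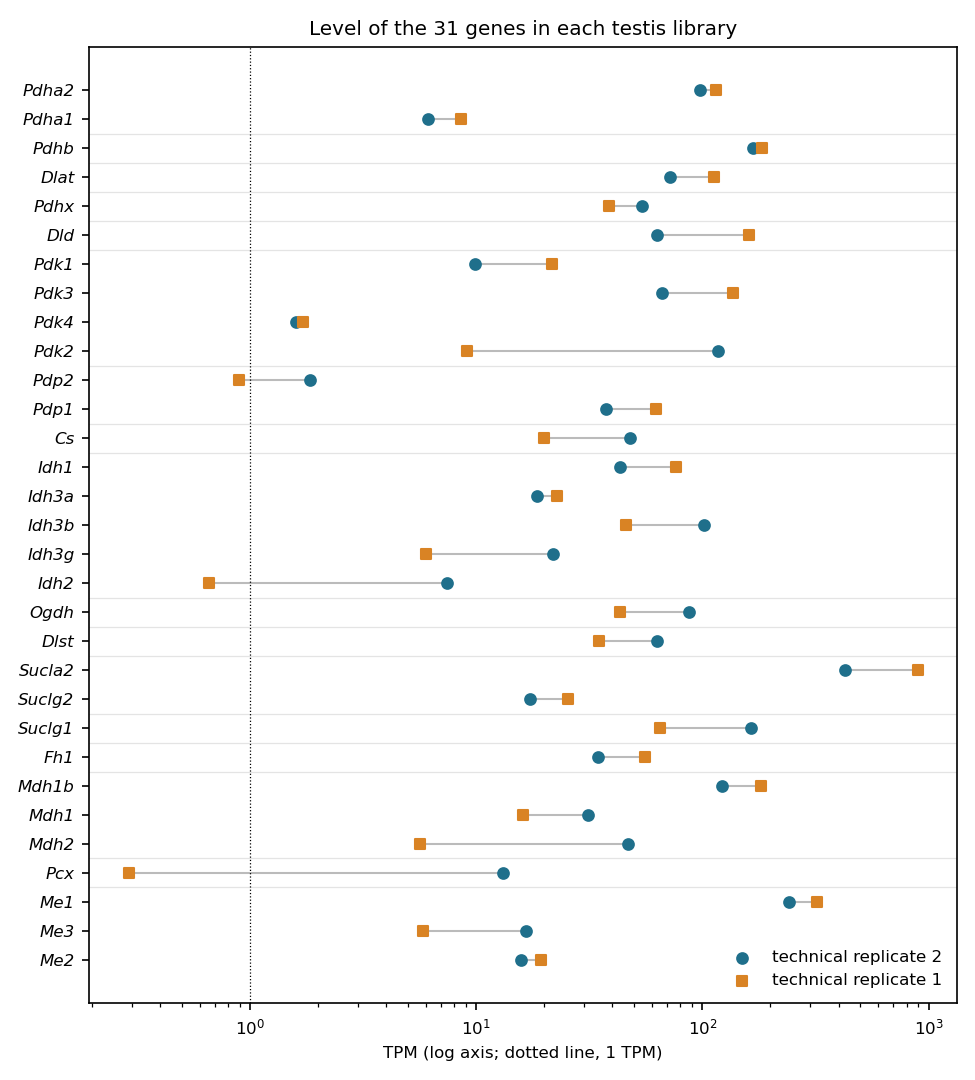
TPM of each of the 31 genes (log axis) in technical replicate 2 (circles) and technical replicate 1 (squares), grouped by enzyme step, with no error bars because each point is 1 library. Sucla2 is highest in both, at 429 TPM in replicate 2 and 895 TPM in replicate 1, and Pcx, Idh2, Mdh2 and Pdk2 have the widest gaps between the libraries.

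The level of a gene differed between the libraries in many cases. An exact conditional binomial test on the counts, adjusted by Benjamini-Hochberg over 18581 genes, called a gene where the adjusted p was under 0.05 and the ratio at least 2. Such a call separates the reads of this pair of libraries and says nothing of animals. By it 7 of the 31 genes were higher in replicate 2 (22.6%), where 32.1% of all tested genes were, and 5 of 31 were lower (16.1%), where 23.7% of all were. Both shares were below those of all genes. The 7 higher genes were Pcx, Pdk2, Idh2, Mdh2, Idh3g, Ogdh and Suclg1, with log2 ratios between 1.02 and 5.14. The 5 lower genes were Dld, Sucla2, Pdk3, Idh1 and Pdp1, with log2 ratios between -1.67 and -1.10. The other 19 had log2 ratios between -0.94 and 0.96, and 17 of them had an adjusted p under 0.05 but a ratio under 2. The median log2 ratio of the 31 was -0.42, against -0.0042 over all tested genes (quartiles -0.97 and 1.58).

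GC content moved with these ratios. Each of the 7 higher genes had a most abundant transcript of 50.2% to 57.7% GC, and each of the 5 lower genes one of 40.6% to 47.7%. All 11 genes above 50% GC had a ratio above 0, and 17 of the 20 at or under 50% had one below 0. The exceptions were Pdp2, Fh1 and Mdh1. Across the 31 genes the Spearman rho of GC content and log2 ratio was 0.80, and across the 18396 tested genes with a known GC content it was 0.885. When each gene's ratio was taken relative to genes of similar GC content, 4 of the 12 calls were kept (Idh3g, Idh2, Pcx and Pdk3). Another 2 genes, Mdh1 and Fh1, were called only then, and the median log2 ratio of the 31 on that scale was 0.17. Several genes lay close to the limit, a log2 ratio of 1 in size. Idh3g (1.01), Idh2 (1.04), Fh1 (1.06) and Pdk3 (-1.02) just passed it, and Mdh2 (0.96) and Pdp2 (0.996) just missed it. Pcx (2.05) and Mdh1 (1.24) were further from it. The GC content used for Fh1 is that of Fh1-205, which did not lead in replicate 2. For Idh3g, Pcx and Mdh2 it is that of Idh3g-201, Pcx-201 and Mdh2-201, which did not lead in replicate 1. The part of GC content in any single ratio was not tested.

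**Figure D2:**
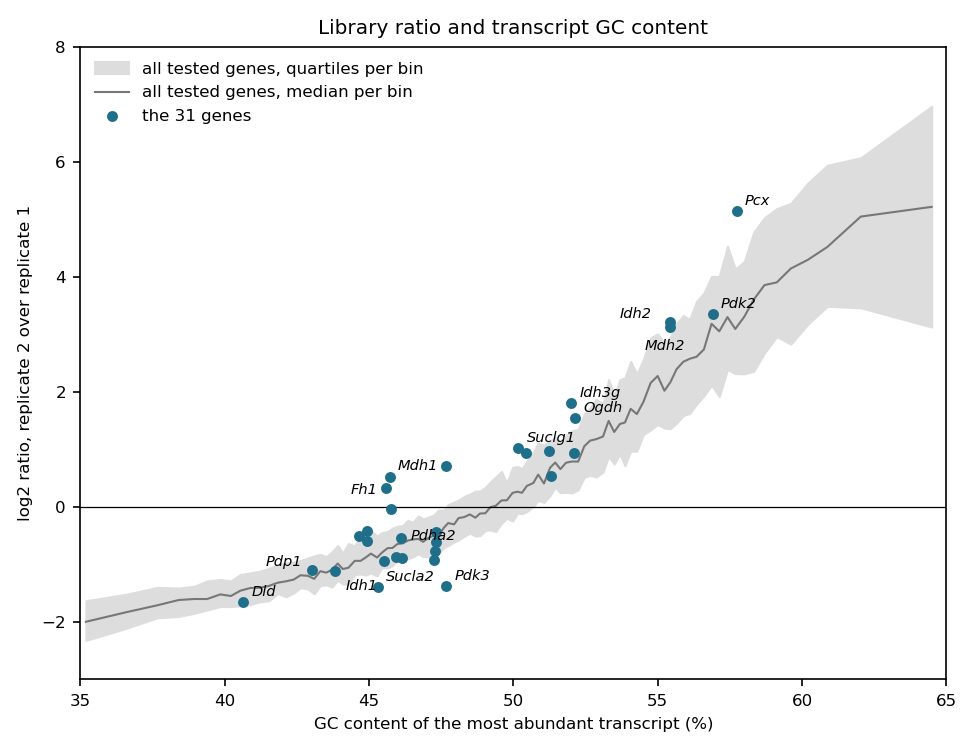
Log2 ratio of counts, replicate 2 over replicate 1, against GC content of the most abundant transcript (percent) for the 31 genes (points), with the median (line) and quartiles (band) of all tested genes in 100 bins of GC content. The points rise with GC content as the line does, and among others Pcx, Mdh1 and Fh1 lie above the band while Pdk3, Sucla2 and Me1 lie below it.

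Within the pyruvate dehydrogenase complex, the testis form of E1 alpha was the main one in both libraries. Pdha2 had 98.0 TPM from 2917 counts in replicate 2 and 115 TPM from 5404 counts in replicate 1. Pdha1 had 6.11 TPM from 198 counts in replicate 2 and 8.57 TPM from 481 counts in replicate 1. Pdha2 therefore made up 94.1% of E1 alpha TPM in replicate 2 and 93.1% in replicate 1. By expected count its share was 93.6% in replicate 2 (exact 95% interval 92.7% to 94.5%) and 91.8% in replicate 1 (91.1% to 92.5%). The level of Pdha2 exceeded that of Pdha1 16.1-fold in replicate 2 (13.9 to 18.6) and 13.4-fold in replicate 1 (12.2 to 14.8). These Clopper-Pearson intervals cover counting error alone, since the reads carry no molecular identifiers. The transcripts differ by 0.58 percentage points in GC content, and neither gene was called between the libraries. Pdha1 shares 603 bases with Map3k15 on the opposite strand, which had 54 counts in replicate 2 and 120 in replicate 1. The sources used here do not say whether the counting used strand.

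The other subunits of the complex were expressed at the same order of level. Pdhb, the E1 beta subunit that pairs with either alpha, had 168 TPM in replicate 2 and 184 TPM in replicate 1. The summed alpha forms stood at 0.620 of the Pdhb level in replicate 2 and 0.672 in replicate 1, which is the closest match between the libraries among the subunit ratios compared here by TPM. Dlat, the E2 acetyltransferase that forms the core, had 71.8 TPM in replicate 2 and 112 TPM in replicate 1. Its most abundant transcript in both libraries was the 770-base Dlat-202, annotated as a processed transcript without a coding sequence, at 50.6% of the gene's level in replicate 2 and 45.8% in replicate 1. Pdhx, which anchors the E3 enzyme to that core, had 53.8 TPM in replicate 2 and 38.5 TPM in replicate 1. Its scaled counts differed little, with a log2 ratio of -0.040 and an adjusted p of 0.466 in the exact binomial test. Dld, the E3 dihydrolipoamide dehydrogenase shared with other 2-oxoacid complexes, was lower in replicate 2, at 62.9 TPM against 160.0 TPM in replicate 1 (log2 ratio of -1.67, transcript GC of 40.6%). Relative to genes of similar GC content its log2 ratio was -0.20. Dld stood at 0.876 of Dlat in replicate 2 and at 1.42 times Dlat in replicate 1.

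The kinase that led the phosphorylation step was not the same in the libraries. Pdk2, the broadly expressed kinase, had 117 TPM from 3311 counts in replicate 2 and 9.14 TPM from 408 counts in replicate 1. Pdk3, an X-linked kinase, had 66.1 TPM from 1700 counts in replicate 2 and 136 TPM from 5621 counts in replicate 1. Pdk2 was higher and Pdk3 lower in replicate 2, with log2 ratios of 3.36 and -1.39. Pdk2 accordingly held 60.2% of kinase TPM in replicate 2 and 5.41% in replicate 1, and Pdk3 held 33.9% in replicate 2 and 80.8% in replicate 1. The log2 level of Pdk3 over Pdk2 was -0.83 in replicate 2 (95% interval -0.91 to -0.74) and 3.90 in replicate 1 (3.75 to 4.05), so the intervals lie on opposite sides of 0. The Pdk3 transcript has 9.24 percentage points less GC than that of Pdk2. Relative to genes of similar GC content the log2 ratio between libraries was 0.17 for Pdk2 and -1.02 for Pdk3.

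Pdk1, a kinase induced by low oxygen in other tissues, had 9.86 TPM in replicate 2 and 21.6 TPM in replicate 1. Its full-length Pdk1-201 (5185 bases) led in replicate 2 at 48.6% of the gene's level, against 26.8% in replicate 1. The 777-base Pdk1-206, a processed transcript, was at 3.80% in replicate 2 and led in replicate 1 at 69.8%. Pdk1 over Pdk2 was -3.57 on the log2 scale in replicate 2 and 1.24 in replicate 1, again of opposite sign. Pdk4, a kinase induced by fasting in other tissues, was the lowest kinase in both libraries, with 1.59 TPM from 72 counts in replicate 2 and 1.71 TPM from 122 counts in replicate 1. Its adjusted p was 0.0656 in the exact binomial test between libraries. Pdk4 stood 73.6-fold under Pdk2 in replicate 2 and 5.36-fold under it in replicate 1.

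Of the phosphatases that reverse the kinases, Pdp1 was the main form in both libraries. Pdp1 had 37.6 TPM in replicate 2 and 62.1 TPM in replicate 1. Pdp2 had 1.83 TPM from 83 counts in replicate 2 and 0.89 TPM from 64 counts in replicate 1. Pdp1 held 95.4% of phosphatase TPM in replicate 2 and 98.6% in replicate 1. By expected count its share was 93.7% in replicate 2 (exact 95% interval 92.2% to 94.9%) and 98.1% in replicate 1 (97.6% to 98.5%). Pdp1 was lower in replicate 2 with a log2 ratio of -1.10, and relative to genes of similar GC content the ratio was 0.15. The 4 kinases summed to 4.93 times the 2 phosphatases by TPM in replicate 2 and 2.68 times in replicate 1.

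Cs, citrate synthase, joins acetyl-CoA to oxaloacetate. It had 47.8 TPM in replicate 2 and 20.0 TPM in replicate 1 (log2 ratio of 0.94, ratio under 2).

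At the isocitrate dehydrogenase step, the summed TPM of the NAD-linked subunits relative to the NADP-linked enzymes differed between the libraries. Idh1, the NADP-linked enzyme of cytosol and peroxisomes, was lower in replicate 2, with 43.0 TPM from 1209 counts, against 76.7 TPM from 3329 counts in replicate 1. Idh2, its mitochondrial relative, was higher in replicate 2, with 7.45 TPM from 157 counts, against 0.66 TPM from 21 counts in replicate 1. Idh1 exceeded Idh2 5.77-fold in replicate 2 (95% interval 4.88 to 6.86) and 117-fold in replicate 1 (76.2 to 189), so the direction held while the size did not. The Idh1 transcript has 11.6 percentage points less GC.

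The NAD-linked enzyme is built from the catalytic subunit Idh3a and the regulatory subunits Idh3b and Idh3g. Idh3a had 18.6 TPM in replicate 2 and 22.7 TPM in replicate 1. Idh3b had 101 TPM in replicate 2 and 45.7 TPM in replicate 1, which is 5.44 times the Idh3a level in replicate 2 and 2.02 times in replicate 1. The X-linked Idh3g was higher in replicate 2, with 21.8 TPM against 6.00 TPM in replicate 1, and stood at 1.17 times Idh3a in replicate 2 and at 0.265 of it in replicate 1. Its coding transcript Idh3g-201 held 71.5% of the gene's level in replicate 2 and 32.1% in replicate 1. The retained-intron transcript Idh3g-202 held 5.55% in replicate 2 and 43.6% in replicate 1. By TPM, Idh3b held 52.7% of the step in replicate 2 and 30.1% in replicate 1, while Idh1 held 22.4% in replicate 2 and 50.5% in replicate 1. The 3 NAD-linked subunits summed to 2.81 times the NADP-linked enzymes in replicate 2 and to 0.962 of them in replicate 1. They form 1 enzyme, so this sum and the shares of the step count that enzyme more than once. The catalytic Idh3a alone was under the summed NADP-linked enzymes in both libraries (50.5 TPM in replicate 2 and 77.3 TPM in replicate 1).

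The 2-oxoglutarate dehydrogenase subunits stood at similar levels by TPM in each library. Ogdh, the E1 subunit, was higher in replicate 2, with 87.1 TPM against 43.4 TPM in replicate 1 (log2 ratio of 1.54). Dlst, the E2 succinyltransferase, had 63.1 TPM in replicate 2 and 35.04 TPM in replicate 1 (log2 ratio of 0.53). Ogdh stood at 1.38 times Dlst by TPM in replicate 2 and 1.24 times in replicate 1. By expected count it stood at 1.61 times Dlst in replicate 2 and at 0.797 of it in replicate 1, so the direction turned. The effective length of Ogdh was 3020.5 bases in replicate 2 and 1660.1 bases in replicate 1, and their transcripts have 52.1% GC (Ogdh) and 51.3% GC (Dlst). The leading Ogdh transcript was the 4114-base Ogdh-202 in replicate 2, at 37.7% against 19.0% in replicate 1. In replicate 1 it was the 621-base Ogdh-206, at 15.1% in replicate 2 and 37.9% in replicate 1.

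Succinate-CoA ligase, which makes the one nucleotide triphosphate formed directly in the cycle, had the most abundant transcript of all 31 genes. Sucla2, the beta subunit of the ADP-forming ligase, had 429 TPM from 9442 counts in replicate 2 and 895 TPM from 31526 counts in replicate 1. Suclg2, the beta subunit of the GDP-forming ligase, had 17.3 TPM in replicate 2 and 25.4 TPM in replicate 1. Sucla2 therefore held 96.1% of beta subunit TPM in replicate 2 and 97.2% in replicate 1, and 94.99% of the counts in replicate 2 and 96.5% in replicate 1. It exceeded Suclg2 24.8-fold in replicate 2 (95% interval 22.6 to 27.2) and 35.2-fold in replicate 1 (33.2 to 37.3), and their GC contents differ by 0.64 percentage points. Sucla2 was lower in replicate 2 (log2 ratio of -1.40), and its level was 8.97 times that of Cs in replicate 2 and 44.7 times in replicate 1. Their transcripts have 45.3% GC (Sucla2) and 50.4% GC (Cs).

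The alpha subunit Suclg1, common to both ligases, moved the other way. Suclg1 was higher in replicate 2, with 164 TPM against 64.7 TPM in replicate 1 (log2 ratio of 1.02). The summed beta forms stood at 2.73 times the alpha subunit in replicate 2 and 14.2 times in replicate 1. The Suclg1 transcript has 50.2% GC and that of Sucla2 45.3%. Relative to genes of similar GC content their log2 ratios were 0.76 and -0.52, and neither was called. The part of GC content in these ratios was not tested. Suclg2 has a near-identical processed pseudogene on the X chromosome, Gm15163 (99.1% over 1216 bases), which was listed at 0.24 TPM in replicate 2 and 0.10 TPM in replicate 1. Pdhb likewise has Gm6123 (97.0% over 1079 bases), at 0.17 TPM in replicate 2 and 0.26 TPM in replicate 1.

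Fh1, the fumarase, is a gene whose TPM and counts disagreed in direction. It had 34.6 TPM in replicate 2 and 55.7 TPM in replicate 1, from 677 counts in replicate 2 and 679 in replicate 1, and its log2 ratio of scaled counts was 0.33. Its longer transcript Fh1-201 (2636 bases) held 50.8% of the gene's level in replicate 2 and 9.19% in replicate 1, and the 542-base Fh1-205 held 47.2% in replicate 2 and 71.9% in replicate 1. TPM divides by effective length, so the same number of reads weighs more where a shorter transcript is assigned. Pdhx was the other such gene among the 31.

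**Figure D3:**
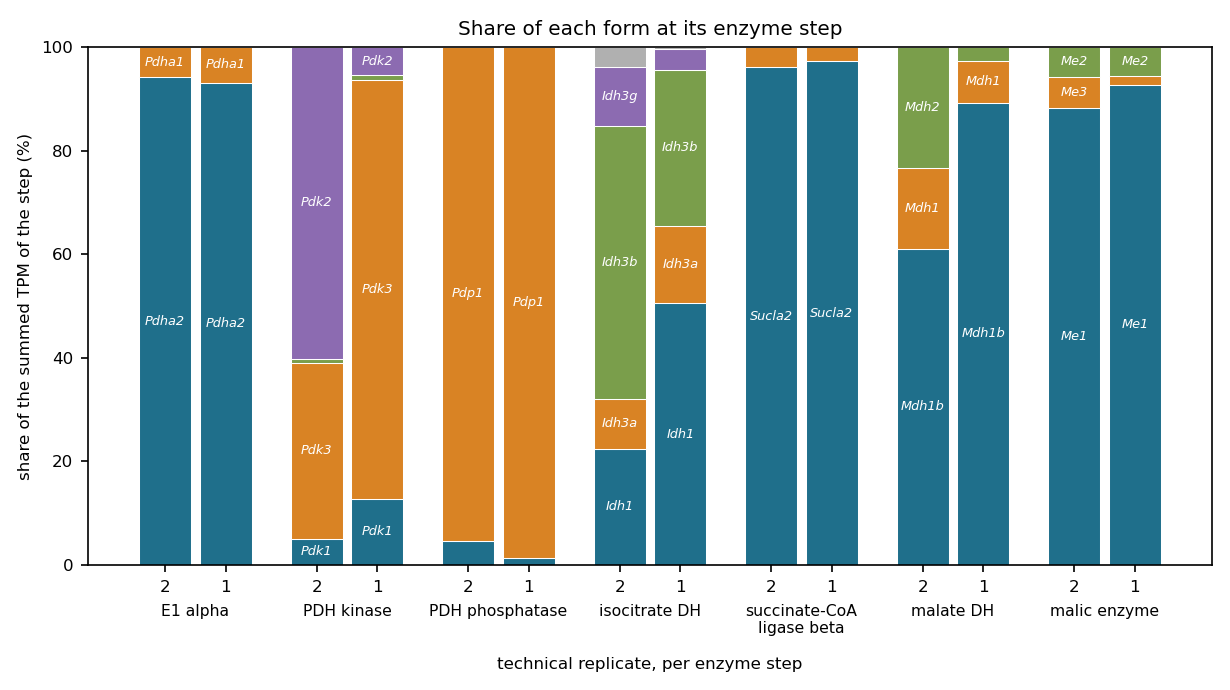
Share of each form in the summed TPM (percent) of 7 enzyme steps, with technical replicate 2 left of technical replicate 1 at each step; unlabelled segments are forms under 5%. Pdha2, Pdp1, Sucla2 and Me1 fill most of their bars in both libraries, while the kinase, isocitrate dehydrogenase and malate dehydrogenase bars differ between the libraries.

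At the malate dehydrogenase step the largest share belonged to Mdh1b, a relative of the cytosolic enzyme whose function is less well described. Mdh1b had 122 TPM in replicate 2 and 181 TPM in replicate 1. It held 61.1% of the step's TPM in replicate 2 and 89.3% in replicate 1, and 65.2% of its counts in replicate 2 and 90.3% in replicate 1. Mdh1, the cytosolic enzyme of the malate-aspartate shuttle, had 31.1 TPM in replicate 2 and 16.2 TPM in replicate 1. Mdh1b exceeded Mdh1 3.92-fold in replicate 2 (95% interval 3.59 to 4.29) and 11.2-fold in replicate 1 (10.2 to 12.3), with 0.42 percentage points between their GC contents.

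Mdh2, the mitochondrial enzyme that closes the cycle, was higher in replicate 2, with 46.7 TPM from 764 counts against 5.62 TPM from 110 counts in replicate 1 (log2 ratio of 3.13, 55.4% GC). The coding transcript Mdh2-201 held 78.2% of the gene's level in replicate 2 and 1.70% in replicate 1. Mdh2-203, annotated as subject to nonsense-mediated decay, held 20.1% in replicate 2 and 93.5% in replicate 1. Mdh1 over Mdh2 was -0.58 on the log2 scale in replicate 2 (95% interval -0.74 to -0.43) and 1.53 in replicate 1 (1.23 to 1.84). The cytosolic form was thus under the mitochondrial one in replicate 2 and over it in replicate 1.

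Of the genes that link pyruvate and malate, the malic enzyme Me1 was by far the most abundant. Me1, the cytosolic NADP-linked enzyme, had 241 TPM in replicate 2 and 321 TPM in replicate 1. Me2, the mitochondrial NAD-linked enzyme, had 15.8 TPM in replicate 2 and 19.4 TPM in replicate 1. Me1 exceeded Me2 15.2-fold in replicate 2 (95% interval 13.9 to 16.7) and 16.6-fold in replicate 1 (15.5 to 17.7), and their GC contents differ by 0.076 percentage points. Me1 held 88.2% of malic enzyme TPM in replicate 2 and 92.7% in replicate 1.

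Me3, the mitochondrial NADP-linked enzyme, had 16.6 TPM in replicate 2 and 5.82 TPM in replicate 1. At least 92.6% of its level in each library came from Me3-201, annotated as a processed transcript. Me3 and Me2 could not be told apart in replicate 2, where the log2 level of Me3 over Me2 was 0.067 (95% interval -0.17 to 0.30). In replicate 1 it was -1.74, with an upper bound of -1.48, which puts Me3 at 0.300 of the Me2 level there. Me1 has a processed pseudogene on chromosome 1, Gm7329, that matched it at 99.0% over 210 bases. Gm7329 was listed at 65.7 TPM from 42.5 counts in replicate 2 and 463 TPM from 422 counts in replicate 1. The posterior SD of the Me1 count was 13.0 reads in replicate 2, on 8932 counts, and 18.9 reads in replicate 1, on 21537 counts. Gm7049 (98.4% over 1716 bases) and Gm48795, near-identical loci on chromosome 13, were not among the genes measured. The posterior SD of the Me1 count therefore does not cover reads from these 2 loci.

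Pcx, pyruvate carboxylase, which makes oxaloacetate from pyruvate, had the largest ratio between the libraries among the 31 genes. Pcx was higher in replicate 2, with 13.1 TPM from 713 counts against 0.29 TPM from 25 counts in replicate 1. The log2 ratio was 5.14, its transcript has 57.7% GC, and relative to genes of similar GC content the log2 ratio was 2.05. All of its level was assigned to Pcx-201 in replicate 2 and all of it to Pcx-202 in replicate 1.

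**Figure D4:**
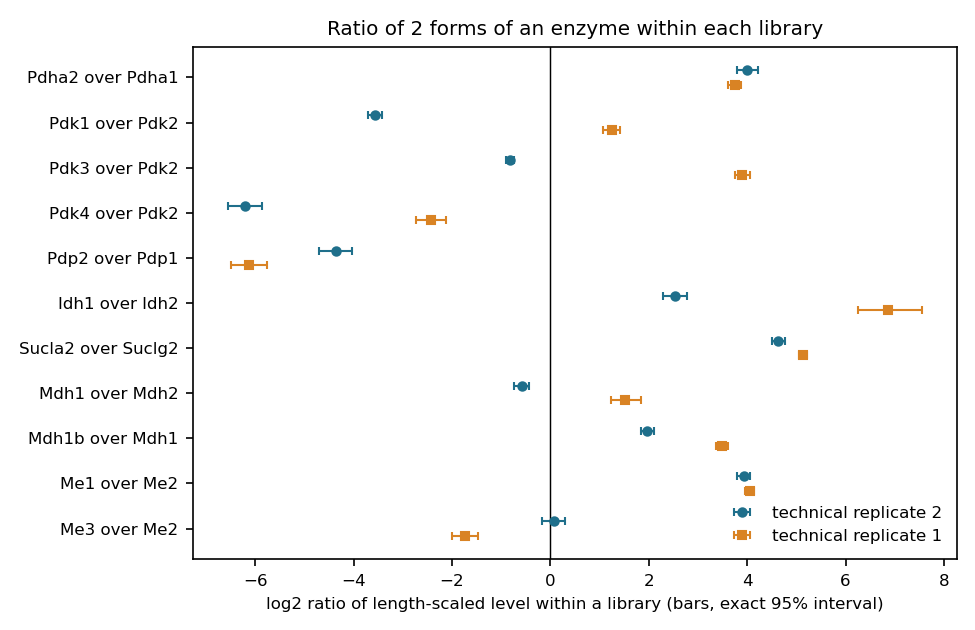
Log2 ratio of the length-scaled levels of 11 pairs of enzyme forms within technical replicate 2 (circles) and technical replicate 1 (squares), with exact 95% intervals as bars. In 7 pairs both libraries lie on the same side of 0, and in Pdk1 over Pdk2, Pdk3 over Pdk2 and Mdh1 over Mdh2 they lie on opposite sides, while the replicate 2 bar of Me3 over Me2 crosses 0.

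Of the 11 pairs of forms compared within a library, 7 had an interval on the same side of 1 in both. The first form was higher in 5 (Pdha2 over Pdha1, Idh1 over Idh2, Sucla2 over Suclg2, Mdh1b over Mdh1 and Me1 over Me2) and lower in 2 (Pdk4 over Pdk2 and Pdp2 over Pdp1). In 3 (Pdk1 over Pdk2, Pdk3 over Pdk2 and Mdh1 over Mdh2) the intervals lay on opposite sides of 1, and for Me3 over Me2 the interval in replicate 2 included 1. In the pairs with a GC difference under 1 percentage point (Pdha2 with Pdha1, Sucla2 with Suclg2, Mdh1b with Mdh1, and Me1 with Me2) the direction was the same in both libraries. In Pdk1 over Pdk2, Pdk3 over Pdk2, Mdh1 over Mdh2 and Me3 over Me2 the GC difference was 3.93 to 12.2 percentage points in size. Pdk4 with Pdk2, Idh1 with Idh2 and Pdp2 with Pdp1 also differed by 4.66 points or more and kept 1 direction. The part of GC content in these ratios was not tested.

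Another 19 genes of the same pathway are outside the list of 31. They include the succinate dehydrogenase subunits, the mitochondrial pyruvate carriers and the lipoate enzymes that modify Dlat and Dlst. Of these 17 reached 1 TPM in each library and 18 were tested. By the same test 8 of the 18 were higher in replicate 2 (44.4%, against 32.1% of all tested genes), 0 were lower (against 23.7% of all) and 10 were not called. Pck1 was not tested. Their median log2 ratio was 0.91 and their median transcript GC was 52.1%. The 8 higher genes had 52.3% to 59.1% GC, and Sdhb, Sdhc, Ogdhl and Slc25a1 were among them. Mpc2, a subunit of the mitochondrial pyruvate carrier, was the most abundant, with 409.6 TPM in replicate 2 and 799 TPM in replicate 1. Lias, which makes lipoate, had 74.8 TPM in replicate 2 and 89.2 TPM in replicate 1. Sdha, the flavoprotein of succinate dehydrogenase, had 90.3 TPM in replicate 2 and 68.0 TPM in replicate 1. Its iron-sulfur partner Sdhb had 115 TPM in replicate 2 and 32.5 TPM in replicate 1. The phosphoenolpyruvate carboxykinases were at the low end. Pck1 had 0.38 TPM from 13 counts in replicate 2 and 0.09 TPM from 5 counts in replicate 1, and Pck2 had 2.40 TPM in replicate 2 and 0.19 TPM in replicate 1.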

How the data were processed

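PolyA mRNA was sequenced in 2 technical libraries of 1 testis. Per the labels, RNA was extracted with an RNeasy lipid tissue kit, and the size range was 350 to 450. The authors deposited, for each library, a gene and a transcript table quantified on mm10 with annotation M4, per the deposited notes. The program is not given in the sources used here. Values deposited by the authors are expected counts (estimated reads that need not be whole), TPM, FPKM and posterior mean TPM. The deposited percent is a transcript's share of its gene. The deposited score columns hold the posterior SD of a count and the bounds of a TPM interval of unstated level.

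Names, GC content and copies came from GENCODE M21 (42462 of 43346 genes matched) and BLAST 2.17.0, with copies defined as matches of 95% identity over 100 bases or more. GC content is that of the most abundant transcript by mean TPM of the libraries. For 6 of the 31 genes, Pdk1 and Fh1 among them, that transcript did not lead in both libraries. Counts were rounded, scaled by TMM in edgeR 4.0.16 (factors 1.11 for replicate 2 and 0.904 for replicate 1) and compared by an exact two-sided conditional binomial test over the 18581 genes that averaged at least 10 counts. Log2 ratios had 0.5 added to each count. Pairs of forms were compared within a library by exact intervals on counts scaled by effective length. All 31 genes are named. Of the 19 other pathway genes, the 4 of highest mean TPM and those under 1 TPM in a library are given with values, and 1 of the 19 is counted but not reported by itself here. Transcripts are described where the leading one differs between the libraries or is shorter than 350 bases, which held for 6 and 0 of the 31 genes. Leading transcripts of Dlat and Me3, and genes with near-identical copies, were added after their values were seen. The members, lists and tests were chosen with earlier results of these data known. Alternatives covered scaling (plain totals, DESeq2 1.42.0), filters, ratio limits, GC content in 100 bins, an edgeR exact test with an assumed coefficient of variation of 0.1, FPKM, posterior mean TPM and each library alone. Scripts ran in Python 3.11.15 (scipy 1.17.1, pandas 2.3.3, numpy 2.4.6) and in R 4.3.3.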

Additional observations from a re-analysis of the deposited data

How the results depend on the processing

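No paired analysis was possible because the 2 libraries are technical replicates of 1 group. With plain library totals, which move the median log2 ratio of all genes by 0.29, 11 of the 31 genes were higher in replicate 2 and 3 lower (36.1% and 15.3% of all genes), in place of 7 and 5, and 70.3% of all calls were higher in place of 57.5%. A ratio of 1.5 gave 11 higher and 12 lower (37.2% and 33.7% of all genes), and a ratio of 4 gave 4 higher and 0 lower (20.8% and 2.70% of all genes). Relative to genes of similar GC content 5 were higher and 1 lower, and Pdp1 changed sign, with a log2 ratio of 0.15. Of the 12 calls 8 were lost by that step, and 10.9% of all genes were then higher and 8.70% lower. The share of the 31 that was higher was thus above that of all genes there, and not below it as in the main test. At a ratio of 1.5 the share that was lower was above that of all genes too. DESeq2 size factors, the other count filters and the edgeR exact test left both counts within 1.5 times. Taking each library alone, the log2 level of Pdk1 over Pdk2 ran -3.57 to 1.24, of Pdk3 over Pdk2 -0.83 to 3.90, of Mdh1 over Mdh2 -0.58 to 1.53 and of Me3 over Me2 -1.74 to 0.067, and 10 to 11 pairs were called in place of 7. Without length scaling Me3 over Me2 was called, with a mean log2 ratio of -1.96. FPKM, posterior mean TPM and transcripts of 350 bases or longer changed no pair call. Of 21 shares, 8 moved by more than the spread between libraries with unscaled counts and 1 with posterior mean TPM. The cause of these changes was not tested. A comparison between the libraries leaves none to leave out. Pdp2, Pdk4, Idh2 and Pcx had under 100 counts in a library, which limits their ratios most.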

Other observations

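Csl, a citrate synthase relative encoded by a single exon on chromosome 10, is outside the list of 31 genes and was added after its values were seen. It had 205 TPM from 4991 counts in replicate 2 and 53.5 TPM from 2049 counts in replicate 1. Its level was 4.29 times that of Cs in replicate 2 and 2.67 times in replicate 1. Its log2 ratio between libraries was 1.62, and its transcript has 50.8% GC. The leading Mpc2 transcript was the 1025-base Mpc2-201 in replicate 2, at 75.9% of the gene's level against 12.2% in replicate 1. In replicate 1 it was the 493-base Mpc2-203, a processed transcript, at 23.2% in replicate 2 and 87.4% in replicate 1.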
